A study of Rattus norvegicus with 20 samples.

Results

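Transcripts of 7 genes of the glucocorticoid response were followed in the blood cells of LEW and WKY rats fed with STD or CAF. The genes were Nr3c1, Fkbp5, Tsc22d3, Zbtb16, Sgk1, Klf9 and Hsd11b1, and each was chosen as a probe set to which the platform's annotation gives that symbol alone. Each of the 7 was measured by 1 probe set, so that 7 of the 15209 probe sets with a single symbol, and 7 of 28826 in all, are described. None of the 7 encodes an adrenergic receptor, and the genes of adrenaline and noradrenaline signalling are given further on as a separate list. RNA was taken from male rats aged 15 weeks and read on Affymetrix Rat Gene ST arrays, with 1 rat on each of 20 arrays. The rats formed 4 groups of 5, namely inbred LEW/Crl and WKY/NCrl rats that received standard chow (STD) or a cafeteria diet of energy-dense human snack foods (CAF) for 7 weeks. All rats were fasted for 9 h before blood was taken. The labels name the cells PBMCs, the methods describe monocytes that had adhered to plastic, and each group holds a single inbred strain, so that a strain difference is a difference between 2 genotypes.

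Glucocorticoids such as corticosterone, the main adrenal steroid of the rat, enter cells and bind the glucocorticoid receptor, which is held ready in the cytoplasm by chaperones of the HSP90 family. The bound receptor moves to the nucleus, where it turns on a set of genes found in many cell types and restrains inflammatory ones. In blood leukocytes such genes are widely used as a readout of hormone exposure, and catecholamines act on the same cells through receptors that raise or lower cyclic AMP. LEW rats are known for a weak corticosterone response to stress, but plasma hormone was not analysed here.

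The values are log2 signals normalised between arrays by the authors, in which a difference of 1 is a doubling. Signals of different probe sets do not give relative amounts of their transcripts, and differences between groups compare each gene only with itself. A difference is called where the adjusted p is under 0.05 in a limma model over all 28826 probe sets. Array medians ran from 6.83 to 6.90. Over all probe sets, group differences had a typical standard error of 0.0689 (their median). Monocyte, lymphocyte and other markers were all measured, with mean log2 signals over the 20 arrays of 12.71 for Cd14 and 13.34 for Lyz2 of monocytes, 12.27 for Cd3e of T cells, 12.19 for Cd79b of B cells and 13.26 for Hbb of red cells. In such a mixture, fewer cells of a type and less RNA per cell cannot be told apart. A heat shock score, the mean centred log2 signal of 11 heat shock genes, set 4 arrays apart, LEW STD rats 2 and 3, LEW CAF rat 2 and WKY STD rat 1, at 0.58 to 1.19 against −0.33 to 0.04 in the others. The results below are given with and without these arrays where the call changed.

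Between the strains, 2 of the 7 genes differed on STD and 2 on CAF. Of all probe sets, 11.3% were called on STD (5.88% higher and 5.38% lower in WKY rats) and 7.58% on CAF (4.24% higher and 3.34% lower). With 1 gene higher and 1 lower on each diet, the 7 genes were too few to be set apart from that background. Sgk1 was higher in WKY rats on both diets, by 1.93-fold on STD and 1.85-fold on CAF. Tsc22d3 was lower in WKY rats on STD and Hsd11b1 on CAF, both by less than 1.5-fold. The receptor gene Nr3c1 and the target genes Fkbp5, Klf9 and Zbtb16 passed in neither comparison. No gene passed between the diets in either strain.

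**Figure D1:**
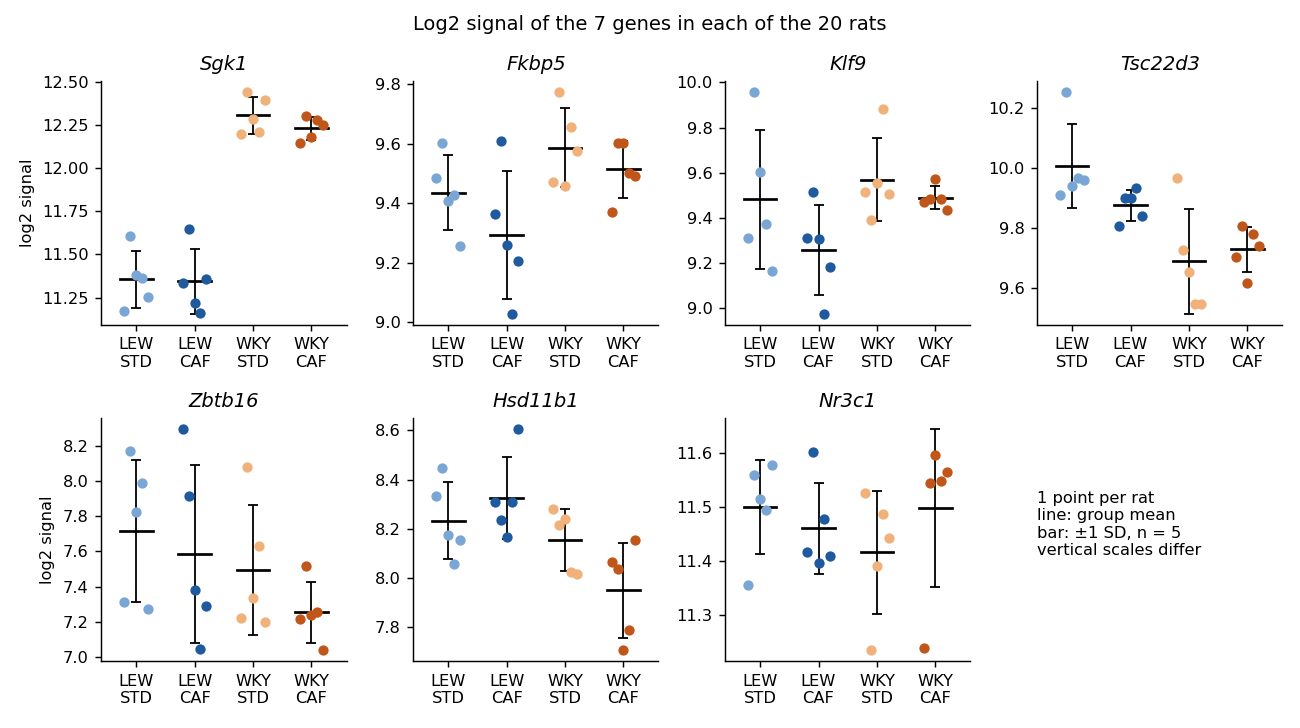
Log2 signal (vertical axes, which differ between panels) of the 7 genes in the 4 groups, where a point is a single rat, lines mark the group means and bars show 1 SD (n = 5). Every WKY rat lay above every LEW rat for Sgk1, whose group means were 12.31 and 12.23 in WKY and 11.36 and 11.35 in LEW rats, while the groups overlapped for Nr3c1.

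Sgk1 encodes a serine/threonine kinase that glucocorticoids and mineralocorticoids induce and that regulates ion channels and cell survival. In LEW rats the log2 signals were 11.17, 11.61, 11.38, 11.37 and 11.25 on STD and 11.34, 11.65, 11.22, 11.16 and 11.36 on CAF. In WKY rats they were 12.20, 12.44, 12.29, 12.21 and 12.39 on STD and 12.15, 12.30, 12.18, 12.28 and 12.25 on CAF. The lowest WKY rat, at 12.15, was thus well above the highest LEW rat, at 11.65, and the strains did not overlap on either diet. Groups without overlap were seen for 8.46% of all probe sets on STD and for 7.8% on CAF. The log2 difference was 0.95 (SE 0.08, adjusted p = 1.84e-07) on STD, with a 95% interval of 1.71-fold to 2.18-fold. On CAF it was 0.89 (SE 0.08, adjusted p = 5.37e-07), with an interval of 1.63-fold to 2.09-fold. By P-value it ranked 90 and 100 of the 28826 probe sets. Both calls held with each array left out in turn, with a range of 0.84 to 1.01, and without the 4 arrays of high heat shock score, at 1.07 and 0.96.

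Several marker lists moved between the strains with Sgk1. Of 11 measured NK cell markers, 10 were higher in WKY rats on STD and 8 on CAF, with none lower. Their summed signal, on the log2 scale, ranged from 13.50 to 13.93 in LEW and from 14.32 to 14.93 in WKY rats. Of 12 neutrophil markers, 10 were higher on STD and 5 on CAF, and their summed signal was 12.35 to 13.82 in LEW and 13.38 to 15.00 in WKY rats. Of 15 immediate-early genes, which respond within minutes to activation or handling, 13 were higher on STD and 6 on CAF. Their sums were 14.75 to 15.40 in LEW and 15.38 to 15.89 in WKY rats. With the NK score of each array as a covariate, added after the data were seen, the log2 difference of Sgk1 was 0.51 (SE 0.23, adjusted p = 0.618) on STD and 0.56 (SE 0.18, adjusted p = 0.209) on CAF. The NK score did not overlap between the strains, at −0.75 to −0.25 in LEW and 0.30 to 0.95 in WKY rats, so that NK markers and strain can scarcely be told apart in this fit. With the neutrophil score the differences were 0.62 (adjusted p = 0.00724) and 0.68 (adjusted p = 8.78e-05), and with the immediate-early score 0.59 (adjusted p = 0.0479) and 0.64 (adjusted p = 0.00241). The neutrophil score did not overlap between the strains on STD, at −1.29 to −0.59 in LEW and −0.11 to 1.40 in WKY rats, but overlapped on CAF. The immediate-early score overlapped on neither diet. It was −0.51 to 0.15 against 0.38 to 0.57 on STD and −0.57 to −0.23 against 0.04 to 0.29 on CAF. Where a score did not overlap, its genes and strain can scarcely be told apart in that fit either. The part of NK cells and neutrophils in the Sgk1 difference was otherwise not tested.

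Both Sgk1 and Tsc22d3, which differed on STD, are transcribed from several starts. RefSeq gives start windows, from 250 bases before a start to 50 after it, for 5 of the 7 genes, 10 windows in all, and none for Zbtb16 and Hsd11b1. None of the 10 held TGTTCT, the core of the glucocorticoid response element, nor therefore the full palindromic element that contains it, on either strand. The cyclic AMP response element TGACGTCA and the E-box CACGTG were not in these windows either. Among all 33469 windows in the table, TGTTCT was held by 20.7%, the full element by 0.0149%, TGACGTCA by 1.83% and CACGTG by 6.42%. Elements farther from the starts were not searched. The letters TATAAA, a motif added after the windows were read, occurred in 3 of the 10 and in 14.2% of all windows, counting both strands, and are in capitals here. These 3 windows are shown because they hold that motif, and window 2 of Sgk1 and windows 1 and 2 of Tsc22d3, which lack it, are not. They lie 55 and 33 bases before the start in windows 1 and 3 of Sgk1 and 44 bases before it in window 3 of Tsc22d3, numbered in the order of the table. The windows are from GRCr8, minus strand, written 5′ to 3′, at chr1:24807182-24807481, chr1:24804782-24805081 and chrX:109009985-109010284.
Sgk1, window 1: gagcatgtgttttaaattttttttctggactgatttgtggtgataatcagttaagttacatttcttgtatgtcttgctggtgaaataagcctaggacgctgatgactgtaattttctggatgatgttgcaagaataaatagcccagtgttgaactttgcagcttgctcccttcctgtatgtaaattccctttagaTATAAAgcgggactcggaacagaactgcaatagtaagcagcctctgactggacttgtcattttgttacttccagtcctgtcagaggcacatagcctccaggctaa
Sgk1, window 3: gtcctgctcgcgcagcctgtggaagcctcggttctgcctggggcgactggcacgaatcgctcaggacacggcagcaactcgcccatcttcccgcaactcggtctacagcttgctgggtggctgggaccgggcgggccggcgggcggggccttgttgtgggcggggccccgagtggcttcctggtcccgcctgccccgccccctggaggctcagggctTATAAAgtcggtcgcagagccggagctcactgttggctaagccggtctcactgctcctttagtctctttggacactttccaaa
Tsc22d3, window 3: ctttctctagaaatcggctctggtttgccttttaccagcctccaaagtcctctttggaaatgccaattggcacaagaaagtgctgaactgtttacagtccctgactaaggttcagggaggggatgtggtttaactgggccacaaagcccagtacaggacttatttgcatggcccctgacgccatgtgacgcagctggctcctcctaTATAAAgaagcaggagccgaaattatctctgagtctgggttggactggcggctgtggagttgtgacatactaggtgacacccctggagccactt

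Tsc22d3, which encodes the glucocorticoid-induced leucine zipper protein GILZ, an inhibitor of inflammatory transcription factors in leukocytes, was lower in WKY than in LEW rats on STD. In LEW rats on STD the log2 signals were 9.91, 10.25, 9.94, 9.97 and 9.96, and in WKY rats on STD 9.97, 9.73, 9.65, 9.55 and 9.55. WKY STD rat 1 was level with the LEW rats, and the other 4 lay below all 5 of them. The log2 difference was −0.32 (SE 0.07, adjusted p = 0.00719). On CAF the signals were 9.81, 9.90, 9.90, 9.93 and 9.84 in LEW rats and 9.70, 9.81, 9.61, 9.78 and 9.74 in WKY rats, which overlapped slightly. That difference was −0.15 (SE 0.07, 95% interval −0.30 to 0.01, adjusted p = 0.307). The 2 strain differences were not shown to differ from each other, with an interaction of 0.17 (SE 0.11, adjusted p = 0.882). In order of group means, LEW STD (10.01) was followed by LEW CAF (9.88), WKY CAF (9.73) and WKY STD (9.69), and no neighbouring pair that the design compares passed the test. LEW STD rat 2 and WKY STD rat 1, the highest of their groups, were both arrays of high heat shock score, and without the 4 such arrays the difference on STD was −0.33 (adjusted p = 0.00186).

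The call of Tsc22d3 on STD was lost in several other fits. With only the 2 STD groups in the fit, the adjusted p was 0.0542. Of 14 T cell markers, 6 were lower in WKY rats on STD and none higher, with summed log2 signals of 15.05 to 15.22 in LEW STD and 14.80 to 15.07 in WKY STD rats. Of 15 monocyte markers, 6 were lower and 2 higher, with sums of 15.65 to 15.82 and 15.21 to 15.50. With the T cell score as a covariate the difference was −0.39 (adjusted p = 0.0570) and with the monocyte score −0.23 (adjusted p = 0.137). With the scores added after the data were seen it was −0.27 (neutrophils, adjusted p = 0.510), −0.48 (immediate-early genes, adjusted p = 0.122) and −0.01 (NK cells, adjusted p = 0.999). On STD none of these scores overlapped between the strains. The T cell score was 0.076 to 0.232 in LEW and −0.211 to 0.069 in WKY rats, and the monocyte score 0.111 to 0.286 and −0.295 to 0.020. In these fits the markers and strain can thus scarcely be told apart.

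Hsd11b1 encodes the enzyme that regenerates active corticosterone from its inactive 11-keto form inside cells. It was lower in WKY than in LEW rats on CAF, at 8.06, 8.04, 7.71, 7.79 and 8.16 against 8.31, 8.23, 8.17, 8.31 and 8.61. The groups did not overlap, though the highest WKY CAF rat and the lowest LEW CAF rat were almost level. The log2 difference was −0.37 (SE 0.10, adjusted p = 0.0194), a 1.30-fold difference. On STD the signals were 8.33, 8.45, 8.18, 8.06 and 8.15 in LEW and 8.28, 8.22, 8.24, 8.02 and 8.02 in WKY rats, and the groups overlapped. The difference there was −0.08 (95% interval −0.28 to 0.12, adjusted p = 0.700). The interaction, taken as the diet difference of WKY rats less that of LEW rats, was −0.30 (SE 0.14, unadjusted P = 0.0434, adjusted p = 0.830). From STD to CAF the mean went from 8.16 to 7.95 in WKY rats, a difference of −0.20 (unadjusted P = 0.0477, adjusted p = 0.561), and from 8.23 to 8.32 in LEW rats, a difference of 0.09 (adjusted p = 0.968).

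The call of Hsd11b1 on CAF rested on few rats. It ended without LEW CAF rat 5 (−0.30, adjusted p = 0.0577), without WKY CAF rat 3 (−0.31, adjusted p = 0.0586) and without WKY CAF rat 4 (−0.33, adjusted p = 0.0597). Monocyte markers moved in the same direction, with 6 of 15 lower and none higher in WKY rats on CAF and summed signals of 15.04 to 15.44 against 15.64 to 15.87 in LEW rats. With the monocyte score as a covariate the difference was −0.11 (SE 0.15, adjusted p = 0.811). With the T cell score it was −0.41 (adjusted p = 0.0900), and with the scores of neutrophils and NK cells, added after the data were seen, −0.46 (adjusted p = 0.0552) and −0.07 (adjusted p = 0.961). On CAF the monocyte and NK scores did not overlap between the strains. The monocyte score was 0.05 to 0.34 in LEW and −0.60 to −0.11 in WKY rats, and the NK score −0.75 to −0.29 and 0.30 to 0.46. In these fits the markers and strain can thus scarcely be told apart.

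**Figure D2:**
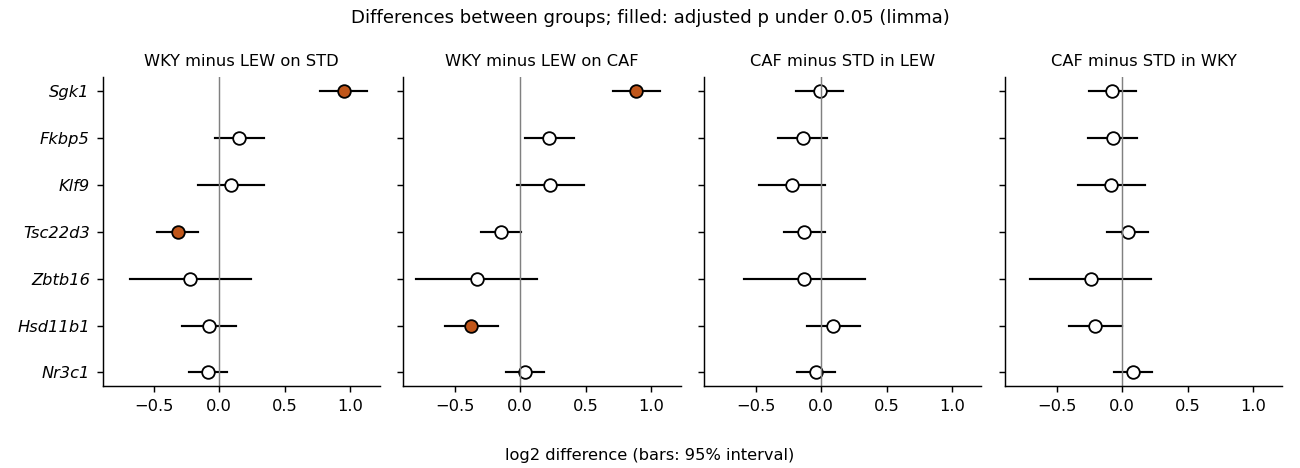
Log2 differences (horizontal axes) of the 7 genes for WKY minus LEW rats on each diet and for CAF minus STD in each strain, with 95% intervals and filled points where the adjusted p from limma was under 0.05. Sgk1 stood at 0.95 and 0.89 between the strains, Tsc22d3 at −0.32 on STD and Hsd11b1 at −0.37 on CAF, and no diet difference is filled.

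The transcript of Nr3c1, which encodes the receptor itself, was at closely similar levels in the 4 groups. The lowest, median and highest log2 signals were 11.36, 11.52 and 11.58 in LEW STD, 11.40, 11.42 and 11.60 in LEW CAF, 11.23, 11.44 and 11.53 in WKY STD and 11.24, 11.55 and 11.60 in WKY CAF rats. The groups overlapped in every comparison. The strain differences were −0.08 on STD (0.853-fold to 1.04-fold, adjusted p = 0.522) and 0.04 on CAF (0.929-fold to 1.14-fold, adjusted p = 0.856). A strain difference of 1.5-fold thus lay outside the interval on both diets.

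Fkbp5 encodes a co-chaperone that lowers the affinity of the receptor for hormone and is itself among its most strongly induced targets. The lowest, median and highest log2 signals were 9.25, 9.43 and 9.60 in LEW STD, 9.03, 9.26 and 9.61 in LEW CAF, 9.46, 9.57 and 9.77 in WKY STD and 9.37, 9.50 and 9.60 in WKY CAF rats. WKY rats were higher on average, but the groups overlapped on both diets. The log2 difference was 0.15 (SE 0.09, adjusted p = 0.334) on STD and 0.22 (SE 0.09, adjusted p = 0.166) on CAF. LEW CAF rat 2, an array of high heat shock score, was the highest of its group at 9.61, and without it the difference on CAF was 0.30 (adjusted p = 0.0254). Without all 4 arrays of high heat shock score it was 0.30 as well (adjusted p = 0.0260).

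Klf9 encodes a Krüppel-like transcription factor that responds to glucocorticoids and to the circadian clock. The lowest, median and highest signals were 9.17, 9.37 and 9.96 in LEW STD, 8.98, 9.31 and 9.51 in LEW CAF, 9.39, 9.52 and 9.88 in WKY STD and 9.43, 9.48 and 9.57 in WKY CAF rats. The 5 WKY CAF rats lay close together, with an SD of 0.05 against 0.31 in LEW STD rats. LEW STD rats 2 and 3, the highest of that group at 9.96 and 9.61, were arrays of high heat shock score, of which WKY CAF had none. The strain differences were 0.09 (SE 0.12, adjusted p = 0.741) on STD and 0.23 (SE 0.12, adjusted p = 0.330) on CAF. With the immediate-early score as a covariate, added after the data were seen, the difference on STD changed sign to −0.66 (adjusted p = 0.0277). That score did not overlap between the strains on STD, so that immediate-early genes and strain can scarcely be told apart in this fit.

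Zbtb16 encodes PLZF, a zinc finger transcription factor that is induced by glucocorticoids and also marks some innate-like lymphocytes. Its SD was the largest of the 7 genes in LEW STD (0.40), LEW CAF (0.51) and WKY STD (0.37) rats, and in WKY CAF rats it was 0.17, against 0.19 for Hsd11b1. The lowest, median and highest signals were 7.27, 7.83 and 8.17 in LEW STD, 7.05, 7.38 and 8.30 in LEW CAF, 7.20, 7.33 and 8.08 in WKY STD and 7.04, 7.24 and 7.52 in WKY CAF rats. The groups overlapped throughout. The strain differences were −0.22 (SE 0.22, adjusted p = 0.616) on STD and −0.33 (SE 0.22, adjusted p = 0.481) on CAF, and with intervals of −0.68 to 0.24 and −0.79 to 0.13 a 1.5-fold difference lay inside both. Without the 4 arrays of high heat shock score the difference on STD was 0.04 (adjusted p = 0.961).

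Between the diets none of the 7 genes passed in LEW or in WKY rats, and none passed for the interaction. No probe set of the 28826 passed in these comparisons from limma, a background of 0% in each. At an unadjusted P under 0.05, 1575 probe sets (5.46%) and none of the 7 genes passed in LEW rats. In WKY rats 2539 (8.81%) passed and for the interaction 1714 (5.95%), with Hsd11b1 as the single one of the 7 in each. The diet differences of the 7 genes ran from −0.22 (Klf9) to 0.09 (Hsd11b1) in LEW rats and from −0.24 (Zbtb16) to 0.08 (Nr3c1) in WKY rats. For 6 of the 7 genes the 95% interval lay within 1.5-fold either way in each strain, the exception being Zbtb16. Sgk1 differed by −0.01 (95% interval −0.19 to 0.17) in LEW and by −0.08 (−0.25 to 0.10) in WKY rats.

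**Figure D3:**
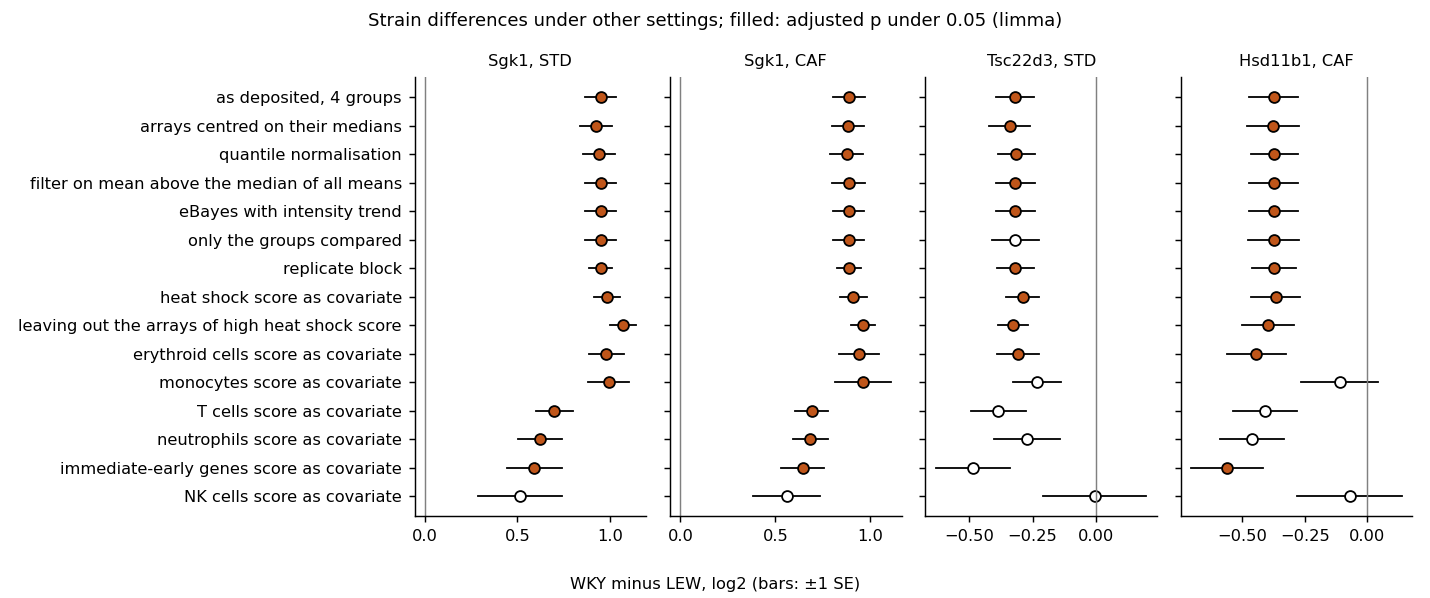
Log2 differences WKY minus LEW (horizontal axes, bars of 1 SE) of the 4 called strain differences under the deposited values and 14 other settings, filled where the adjusted p from limma was under 0.05. Sgk1 was filled in every setting except that with the NK score, at 0.51 and 0.56, while Tsc22d3 on STD and Hsd11b1 on CAF were unfilled with the monocyte and T cell scores among others.

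The genes were next compared from rat to rat, as deviations from the group mean, so that strain and diet were taken out. Of the 21 pairs, 16 correlated positively, with a median Pearson r of 0.21 over the 20 arrays. Fkbp5 and Zbtb16 deviated together, with r = 0.73 (permutation P = 0.00267, adjusted p = 0.0385 over the 21 pairs) and Spearman rho = 0.74 (permutation P = 0.00115, adjusted p = 0.0242). Without the 2 rats farthest from the median in Fkbp5, r was 0.70. Fkbp5 and Sgk1 had r = 0.73 (permutation P = 0.00367, adjusted p = 0.0385) but rho = 0.60 (permutation P = 0.0122, adjusted p = 0.124), and r was 0.53 without the 2 farthest rats. The next pairs, Fkbp5 with Klf9 at r = 0.60 (permutation P = 0.0113, adjusted p = 0.0788) and Zbtb16 with Sgk1 at r = 0.63 (permutation P = 0.0164, adjusted p = 0.0859), did not pass. Nr3c1, Tsc22d3 and Hsd11b1 passed with none of the others, and Tsc22d3 had r = 0.03 with Fkbp5 (permutation P = 0.915, adjusted p = 0.944). The 4 arrays of high heat shock score bore on these relations. Over the other 16 arrays, a setting chosen after the scores were seen, r was 0.70 for Fkbp5 and Zbtb16 (permutation P = 0.0162, adjusted p = 0.340) and 0.41 for Fkbp5 and Sgk1 (permutation P = 0.187, adjusted p = 0.627), and none of the 21 pairs passed. The P-values are two-sided, from 100000 permutations within groups. Such permutations take the rats of a group as exchangeable and do not account for anything shared by replicate number. Rat 2 was the highest of its group for Fkbp5 and Sgk1 in every group, and for Zbtb16 in every group but LEW CAF. The values of a rat share its array and blood sample, and the part of cell makeup was not tested.

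**Figure D4:**
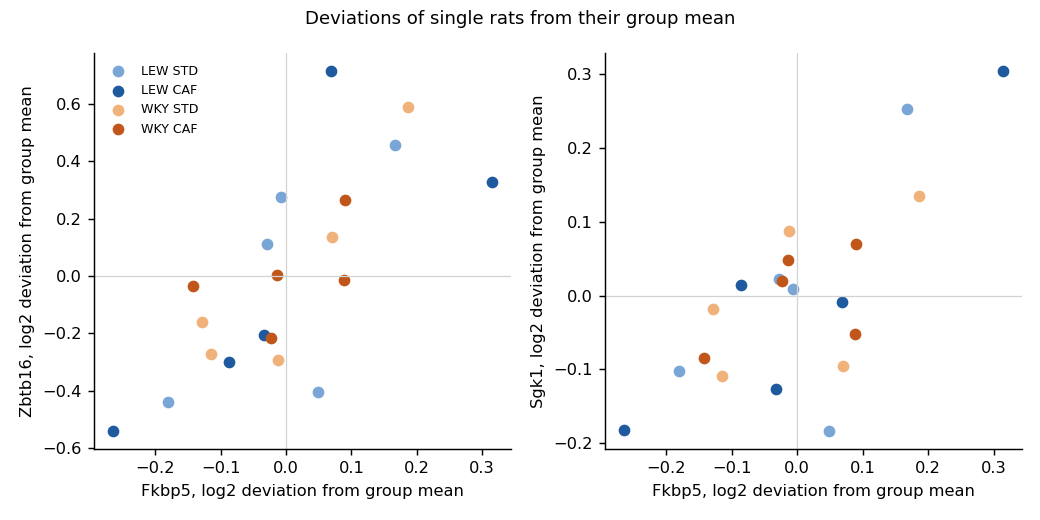
Deviations of single rats from their group mean, in log2, of Zbtb16 and of Sgk1 (vertical axes) against Fkbp5 (horizontal axis), with 1 point per rat, coloured by group. Rats high in Fkbp5 tended to be high in both, with r = 0.73 in each plot, which without the 4 arrays of high heat shock score was 0.70 for Zbtb16 and 0.41 for Sgk1.

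Over the same deviations, the named transcripts most like each gene were sought among all probe sets with a single symbol. They are a description with no test, since each is the highest of 15209, and all share the arrays. For Nr3c1 these were Prpf39 (r = 0.92, rho = 0.89) and Naa20 (r = 0.91, rho = 0.85), and for Fkbp5 Pknox1 (r = 0.86, rho = 0.80) and Coro6 (r = 0.86, rho = 0.88). For Tsc22d3 they were Rab25 (r = 0.89, rho = 0.79) and Gstm1 (r = 0.88, rho = 0.72), and for Zbtb16 Plcb4 (r = 0.86, rho = 0.77) and Ndrg1 (r = 0.85, rho = 0.88). For Sgk1 they were Il10ra (r = 0.89, rho = 0.83) and Klrb1b (r = 0.87, rho = 0.79), which, unlike Sgk1, did not pass between the strains on STD (adjusted p = 0.122 and 0.136) or CAF (adjusted p = 0.799 and 0.916). For Klf9 they were Tsc22d2 (r = 0.93, rho = 0.90) and Tnfrsf12a (r = 0.90, rho = 0.83), and for Hsd11b1 1 probe set of Gapdh (r = 0.82, rho = 0.83) and Cst7 (r = 0.82, rho = 0.83). That probe set of Gapdh was higher in WKY rats on STD (1.06, adjusted p = 0.00139) and CAF (0.88, adjusted p = 0.00850), whereas Hsd11b1 was lower on CAF. Rab25 was higher in WKY rats on CAF (0.39, adjusted p = 0.00111). The other transcripts named here did not pass between the strains on either diet.

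Of the partners of the hormone pathway, Nr3c2, the mineralocorticoid receptor, which also binds corticosterone, was higher in WKY rats on both diets. Its log2 signal was 6.18 ± 0.12 (SD, n = 5) in LEW STD, 6.07 ± 0.14 in LEW CAF, 6.54 ± 0.13 in WKY STD and 6.39 ± 0.20 in WKY CAF rats. Every rat lay below the array medians of 6.83 to 6.90, and whether the signal was above background was not tested. The strains differed by 0.36 on STD (adjusted p = 0.0107) and by 0.32 on CAF (adjusted p = 0.0295). H6pd, which supplies the NADPH that the enzyme of Hsd11b1 needs to work as a reductase, was higher in WKY rats on CAF by 0.31 (adjusted p = 0.00448) and differed by 0.13 on STD (adjusted p = 0.229). Hsd11b2, which inactivates corticosterone, differed by −0.01 on STD (adjusted p = 0.961) and by 0.06 on CAF (adjusted p = 0.744). Of the 8 measured genes of corticosteroid metabolism and access, 1 was higher on STD and 2 were higher on CAF, and none was lower. Of all probe sets, 11.3% were called on STD and 7.58% on CAF, and 8 genes are too few to be set apart from that background. The median difference of the list was 0.07 and 0.04, against −0.003 and −0.009 over all probe sets.

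Among 14 measured genes of the receptor complex and its cofactors, the coactivator gene Ncoa3 was lower in WKY rats on STD, at −0.28 (adjusted p = 2.06e-04), and the others did not pass. On CAF, Smarca4, the ATPase of a chromatin remodelling complex, was higher by 0.23 (adjusted p = 0.00812) and the coactivator gene Ncoa1 by 0.18 (adjusted p = 0.0225), with none lower. These calls stand beside 11.3% of all probe sets called on STD and 7.58% on CAF. The median difference of the list was −0.05 on STD and 0.04 on CAF.

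Of 36 other measured genes that glucocorticoids are known to induce, 7 were higher and 4 lower in WKY rats on STD, and 25 did not pass, where 11.3% of all probe sets were called. The 4 higher ones of the smallest adjusted p were Cited2, a transcriptional regulator (0.38, adjusted p = 7.12e-05), the NF-κB inhibitor Nfkbia (0.49, adjusted p = 0.00277), the interleukin 1 receptor antagonist Il1rn (0.62, adjusted p = 0.00674) and Gadd45a, of the stress response (0.86, adjusted p = 0.0120). The 4 lower ones were Lpin1, a phosphatidate phosphatase (−0.35, adjusted p = 1.25e-04), the interleukin 7 receptor Il7r (−0.63, adjusted p = 2.45e-04), the metallothionein Mt1 (−0.43, adjusted p = 0.00421) and Sesn1, a sestrin (−0.35, adjusted p = 0.00519). On CAF, where 7.58% of all probe sets were called, 2 were higher, Cited2 (0.27, adjusted p = 0.00306) and Nfkbia (0.38, adjusted p = 0.0239), and 2 lower, Il7r (−0.42, adjusted p = 0.0125) and Bcl6, a transcriptional repressor (−0.22, adjusted p = 0.0318). Several of these genes also respond to inflammatory signals or mark a blood cell type, such as Il7r of T cells and Il1r2, higher by 1.45 on STD (adjusted p = 0.0201), of neutrophils. The median differences were 0.09 on STD and 0.02 on CAF, so that the list did not move one way as a whole. The share of 11.3% covers all probe sets, whereas each list took the probe set of the highest mean signal per gene. In a fit of only the probe sets above the median mean signal, 2958 were called on STD, against 3247 of all 28826. The lists were not compared with probe sets of like signal.

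The 8 adrenergic receptors described did not pass between the strains on STD. Adrb1, a receptor that raises cyclic AMP, had group means of 7.20 to 7.28 and differed by 0.06 on STD (adjusted p = 0.654) and 0.04 on CAF (adjusted p = 0.841). Adra2a, which lowers cyclic AMP, had group means of 7.25 to 7.34 and differed by 0.09 (adjusted p = 0.233) and 0.06 (adjusted p = 0.608). Of the 33 measured genes of adrenergic receptors and signalling, 4 were higher and 5 lower in WKY rats on STD, and 4 were higher and 1 lower on CAF, beside 11.3% and 7.58% of all probe sets called in either direction. On both diets Prkar2a, a regulatory subunit of protein kinase A (0.46, adjusted p = 0.00751, and 0.58, adjusted p = 0.00130), Adcy3, an adenylate cyclase (0.25, adjusted p = 0.0240, and 0.36, adjusted p = 0.00196), and the phosphodiesterase Pde4b (0.21, adjusted p = 0.0233, and 0.26, adjusted p = 0.00929) were higher. Pde4d, another phosphodiesterase of cyclic AMP, was lower on both (−0.29, adjusted p = 2.32e-04, and −0.20, adjusted p = 0.00807). Called on one diet alone were Arrb1, of receptor desensitisation (0.31 on STD, adjusted p = 0.0286), Gnas, the stimulatory G protein subunit (−0.18 on STD, adjusted p = 0.0194), the catalytic subunits Prkaca (−0.23 on STD, adjusted p = 0.0242) and Prkacb (0.33 on CAF, adjusted p = 0.00268), Maoa, which degrades amines (−0.40 on STD, adjusted p = 0.0385), and the adenylate cyclase Adcy6 (−0.22 on STD, adjusted p = 0.0389), and their interactions with diet did not pass. The median difference of the list was −0.002 on STD and −0.003 on CAF. Between the diets, no gene of the 4 lists passed in either strain.

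**Figure D5:**
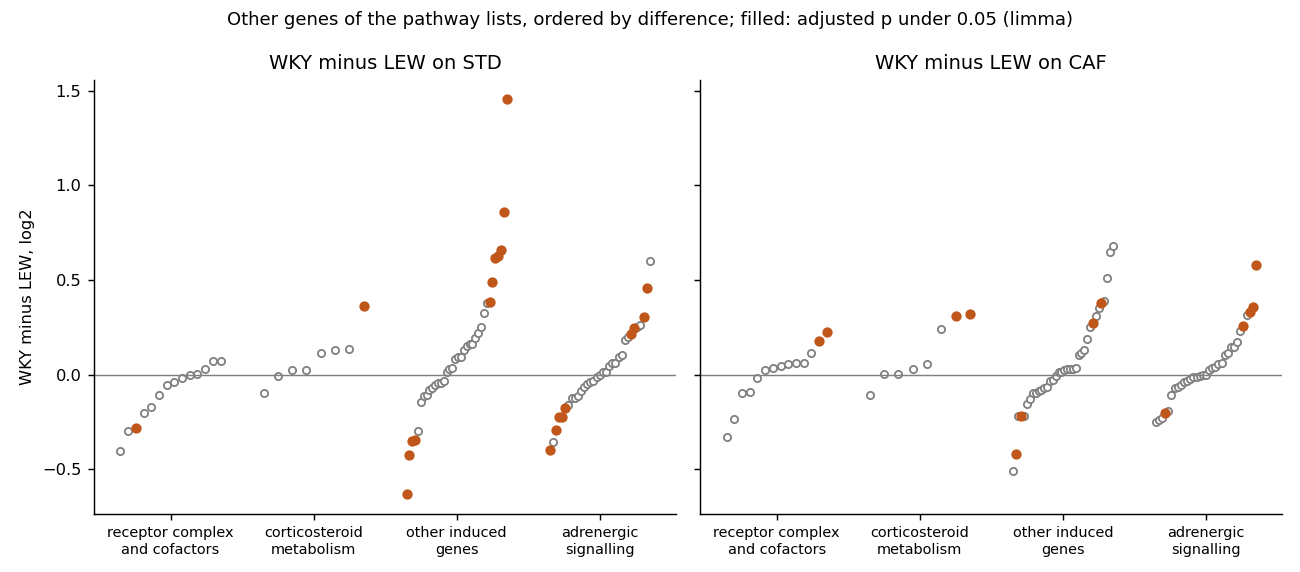
Log2 differences WKY minus LEW (vertical axis) of the other pathway genes on STD and on CAF, with 1 point per gene, ordered within each of the 4 lists and filled where the adjusted p from limma was under 0.05. Filled points lie on both sides of 0, as in adrenergic signalling with 4 higher and 5 lower on STD, and list medians lay between −0.05 and 0.09.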

How the data were processed

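RNA of 20 rats, 1 array per rat, was compared in the 4 groups that the sample titles give. The authors deposited log2 signals per probe set, normalised between arrays with RMA per the methods, whereas the submitters' notes name MAS5 with no version, and which of them made the values is unknown. These values, between 3.57 and 14.4, were taken without further scaling. A model of the 4 group means was fitted in limma 3.58.1 (R 4.3.3), which left 16 residual degrees of freedom beside 3.67 of the prior. P-values were adjusted by Benjamini–Hochberg across the 28826 probe sets. On simulated data, 90 of 100 probe sets changed by 1.5-fold were recovered between the strains on STD and 96 on CAF. Symbols came from the platform's annotation, updated through the rat RefSeq table (GRCr8), which also gave the start windows. A list took the probe set of the highest mean signal per gene, and a score is the mean of log2 signals centred per probe set. Members and lists were chosen with earlier results of these data known. Every member is named, with up to 4 genes of the smallest adjusted p per list and direction, the adrenaline and corticosteroid receptors and Hsd11b partners regardless, and Il1r2, Adcy6 and receptor counts chosen after their values were seen. Alternatives covered normalisation, filtering, the variance model, the arrays fitted, the replicate block, marker scores and each array left out. The number of arrays limits the precision.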

Additional observations from a re-analysis of the deposited data

Results flagged for a closer look

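Within each group of 5 rats the highest or lowest signal of each gene was checked for a wide gap to the next rat, 28 checks in all, of which about 5% are marked where nothing differs, and 2 were marked. Nr3c1 in WKY CAF rat 1 was at 11.24, against 11.55 to 11.60 in the other 4 rats, and the gap took 0.86 of the group's range. Tsc22d3 in LEW STD rat 2 was at 10.25, and its gap to the next rat took 0.83 of the range. That array had the highest heat shock score of the 20, 1.19. Without it the call of Tsc22d3 on STD held, and the range of the difference with each array left out in turn was −0.39 to −0.26 (adjusted p = 4.06e-04 to 0.0268).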

How the results depend on the processing

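Over the 7 genes and 5 comparisons, 435 results of other settings and 689 with an array left out kept their direction and their side of the threshold. These counts include results that were called in neither fit. In other settings 35 changed direction, 12 lost their call and 1 gained a call without changing direction. With an array left out the corresponding counts were 7, 3 and 1. Sgk1 was called on both diets in 13 of 14 other settings. Members called on STD fell from 2 to 1 with only the groups compared and with the monocyte, T cell or neutrophil score, and to 0 with the NK score. On CAF they fell to 1 with the monocyte, T cell or neutrophil score and to 0 with the NK score, and ranged from 1 to 3 with each array left out. All probe sets called, 3247 on STD and 2185 on CAF, were 986 and 1095 with the T cell score, 68 and 245 with the NK score, 455 and 985 with the neutrophil score, 446 and 828 with the immediate-early score, and 1092 on CAF with the monocyte score. In WKY rats 1 probe set passed between the diets with the replicate block, and 0 to 1 with each array left out.

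Differences whose sign changed were not called before, and of them only Klf9 on STD with the immediate-early score (−0.66) passed afterwards. With that score, the strain differences became −0.013 (Fkbp5, CAF), −0.19 (Fkbp5, STD) and −0.28 (Klf9, CAF), the diet differences 0.025 (Zbtb16) and 0.044 (Sgk1) in LEW and 0.089 (Fkbp5), 0.094 (Sgk1), 0.24 (Zbtb16) and 0.27 (Klf9) in WKY rats, and the interaction 0.050 (Sgk1) and 0.21 (Zbtb16). With the NK score, the strain differences became −0.28 (Fkbp5), −0.34 (Klf9) and 0.33 (Hsd11b1) on STD and −0.088 (Klf9), −0.10 (Nr3c1), −0.10 (Fkbp5) and 0.087 (Tsc22d3) on CAF, the diet differences in WKY rats −0.044 (Tsc22d3), 0.0073 (Zbtb16), 0.035 (Klf9), 0.044 (Sgk1) and 0.045 (Fkbp5), and the interaction 0.046 (Sgk1) and 0.12 (Zbtb16). With the monocyte score, Nr3c1 on CAF was at −0.10, Hsd11b1 on STD at 0.075 and the interaction of Zbtb16 at 0.027. Nr3c1 on CAF was at −0.033 with the T cell score, the interaction of Sgk1 at 0.063 with the neutrophil score, and Sgk1 between the diets in LEW rats at 0.033 with the heat shock score. Without the 4 arrays of high heat shock score, Zbtb16 on STD was at 0.036, Sgk1 between the diets in LEW rats at 0.0050 and the interaction of Klf9 at −0.0061, and 0 of the 21 pairs of genes correlated past the threshold against 2 of all 20 arrays. With each array left out, the diet difference in LEW rats ran from −0.087 to 0.052 for Sgk1 and from −0.31 to 0.0054 for Zbtb16, and the interaction from −0.13 to 0.012 and from −0.25 to 0.068. The cause of these changes was not tested.

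The sample titles do not say whether rats of the same replicate number share anything. Correlations of same-numbered arrays' deviations ran from −0.18 to 0.43, and 6 of 20 arrays matched their own number best. The mean was 0.16 for number 5 and 0.12 for number 2, against −0.02 for different numbers in different groups. Rat 2 was the highest of its group in every group for Fkbp5 and for Sgk1. On STD the SE of Sgk1 was 0.06 with the replicate block and 0.08 without. A structure shared by number was not tested further. With the replicate block the called members stayed 2 on STD and 2 on CAF, and all calls were 3384 and 2345.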
